A study of Mus musculus with 7 samples.

Results

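The cyclin-dependent kinase (CDK) inhibitor genes of the INK4 and CIP/KIP families were examined in B-cell precursor (BCP) cells of Eμ-Ret mice. The members were the 7 rows of the expression table that carry the names of these genes, 4 INK4 genes (Cdkn2a, Cdkn2b, Cdkn2c and Cdkn2d) and 3 CIP/KIP genes (Cdkn1a, Cdkn1b and Cdkn1c), of 24341 genes in all. Every sample came from the spleen of an Eμ-Ret transgene hemizygote, and the strain background was BALB/c. The transgene is an oncogenic Ret fusion gene under the immunoglobulin heavy chain enhancer (Eμ). There were 4 preleukemic samples, of BCP cells from young healthy mice, and 3 leukemic samples, of BCP cells from older mice with overt disease. No wild-type sample entered the comparison, so the transgene was present in both groups, and the ages of the 2 groups differed as well as their disease. The labels describe sorted BCP cells in both groups, and the number of mice behind each sample is not given in the sources used here. The study's RNA methods do not mention sorting, and in its in vitro work most leukemic spleen samples were not enriched. Leukemic samples may therefore hold other spleen cells. Values are FPKM, fragments normalized for the length of the transcript and the size of the library, which allow levels to be compared between genes. Depth, read from the steps between low values, was between 13400000 and 14800000 fragments in the preleukemic and between 15200000 and 16100000 in the leukemic samples. Fragment numbers below are estimates from that depth and the longest annotated transcript.

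Progression from G1 to S phase needs D-type cyclins bound to CDK4 or CDK6, which phosphorylate the retinoblastoma protein and release E2F factors. INK4 proteins bind CDK4 and CDK6 and keep them from the D cyclins, whereas CIP/KIP proteins bind cyclin-CDK complexes more widely, CDK2 complexes among them. Cdkn2a is unusual in that it encodes an INK4 protein, p16INK4a, and an unrelated protein, p19ARF, which restrains Mdm2 and thereby stabilizes p53. Cdkn2b encodes p15INK4b and lies beside Cdkn2a. Cdkn2c and Cdkn2d encode p18INK4c and p19INK4d. Cdkn1a (p21) is a transcriptional target of p53, Cdkn1b (p27) is controlled largely through the stability of its protein, and Cdkn1c (p57) is an imprinted gene. Deletion of the CDKN2A and CDKN2B region is a common lesion in human B-cell acute lymphoblastic leukemia.

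Both Cdkn2a products are read from the same strand. In GENCODE M21 (GRCm38) the transcript that starts at the Ink4a exon is 852 bases long and has its first exon at chr4:89281986-89282192, and the transcript that starts at the Arf exon is 895 bases long with its first exon at chr4:89294334-89294653. They share 575 bases, which is 67.5% of the first and 64.2% of the second, and the single FPKM value for Cdkn2a does not separate them. Sequences before the starts of the genes that differed most between the samples are given here because 2 of these genes have 2 starts each, and the starts differ in base composition. They are RefSeq sequences of GRCm38.p6 (a C57BL/6J reference, not BALB/c), 5′ to 3′ on the strand of the gene, taken from the 250 bases before each start and ending where GENCODE annotates an exon. Capitals mark the GC box (GGGCGG, the Sp1 motif), the E2F motif (TTTCGCGC or TTTGGCGC) and the p53 half-site, each searched on both strands.

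Cdkn2a, Arf start, chr4:89294654-89294869, minus strand: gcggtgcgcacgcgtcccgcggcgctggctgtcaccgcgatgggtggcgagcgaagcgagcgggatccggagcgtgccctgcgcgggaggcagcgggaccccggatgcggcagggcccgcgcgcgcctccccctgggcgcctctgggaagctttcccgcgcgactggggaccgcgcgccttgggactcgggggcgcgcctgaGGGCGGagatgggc
Cdkn2a, Ink4a start, chr4:89282193-89282442, minus strand: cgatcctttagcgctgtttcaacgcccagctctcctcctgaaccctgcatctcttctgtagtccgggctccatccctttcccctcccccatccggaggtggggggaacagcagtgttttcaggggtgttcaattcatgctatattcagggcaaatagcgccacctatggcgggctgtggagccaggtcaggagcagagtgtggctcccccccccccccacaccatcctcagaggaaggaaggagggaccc
Cdkn2b, chr4:89311040-89311282, minus strand: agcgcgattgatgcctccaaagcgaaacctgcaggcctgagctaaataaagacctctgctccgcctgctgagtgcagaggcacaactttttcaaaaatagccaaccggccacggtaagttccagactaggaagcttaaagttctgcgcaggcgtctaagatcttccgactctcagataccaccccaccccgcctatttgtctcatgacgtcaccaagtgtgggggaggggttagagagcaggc
Cdkn1a, upstream start, chr17:29090729-29090975, plus strand: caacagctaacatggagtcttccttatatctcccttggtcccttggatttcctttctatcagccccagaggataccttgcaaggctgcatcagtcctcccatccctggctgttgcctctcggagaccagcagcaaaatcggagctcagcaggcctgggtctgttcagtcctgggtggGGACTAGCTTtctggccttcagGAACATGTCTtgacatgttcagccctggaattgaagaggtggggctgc
Cdkn1a, downstream start, chr17:29093519-29093768, plus strand: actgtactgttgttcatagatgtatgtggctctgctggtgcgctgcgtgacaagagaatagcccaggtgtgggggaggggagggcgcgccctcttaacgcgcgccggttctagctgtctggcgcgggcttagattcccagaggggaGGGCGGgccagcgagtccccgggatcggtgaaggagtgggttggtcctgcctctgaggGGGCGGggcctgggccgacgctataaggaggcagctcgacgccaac

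The 250 bases before the Arf start had a GC content of 78.4% with 40 CpG dinucleotides and 2 GC boxes, the second of which lies in the 34 bases not printed. Those before the Ink4a start had 60.0% and 7 CpG with no GC box, and those before Cdkn2b had 53.6% and 12 CpG with no GC box. Over 32817 promoters of the same length the median GC content was 52.4% and the median number of CpG was 6.0, and a GC box was found in 32.7%. The window before the upstream Cdkn1a start (GC content 54.0%, 2 CpG) held 2 p53 half-sites, a motif found in 7.12% of promoters. The window before the downstream Cdkn1a start (64.8%, 19 CpG) held 2 GC boxes and no p53 half-site. Neither exact E2F string (TTTCGCGC or TTTGGCGC) was found in the windows of the 6 members with an entry. These strings were found in 0.655% of all promoters. Other variants of the E2F motif were not searched, so these windows may still hold such variants. These matches describe the letters in these windows and not the binding of a factor.

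A few members carried most of the CDK inhibitor RNA in both groups. Cdkn2c, Cdkn2d and Cdkn1b together made up 81.9% ± 9.69 (SD, n = 4) of the summed FPKM of the 7 genes in preleukemia and 94.8% ± 1.83 (SD, n = 3) in leukemia. The order of mean levels in preleukemic samples was Cdkn1b, Cdkn2d, Cdkn2c, Cdkn2a, Cdkn1a, Cdkn2b and Cdkn1c. The order in leukemic samples was the same except that Cdkn2d stood above Cdkn1b. In preleukemia the ranges of neighbors in this order overlapped down to Cdkn1a, and those of Cdkn1a, Cdkn2b and Cdkn1c were separate. In leukemia the ranges overlapped between Cdkn2d and Cdkn1b, between Cdkn2a and Cdkn1a and between Cdkn2b and Cdkn1c, with gaps elsewhere.

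**Figure D1:**
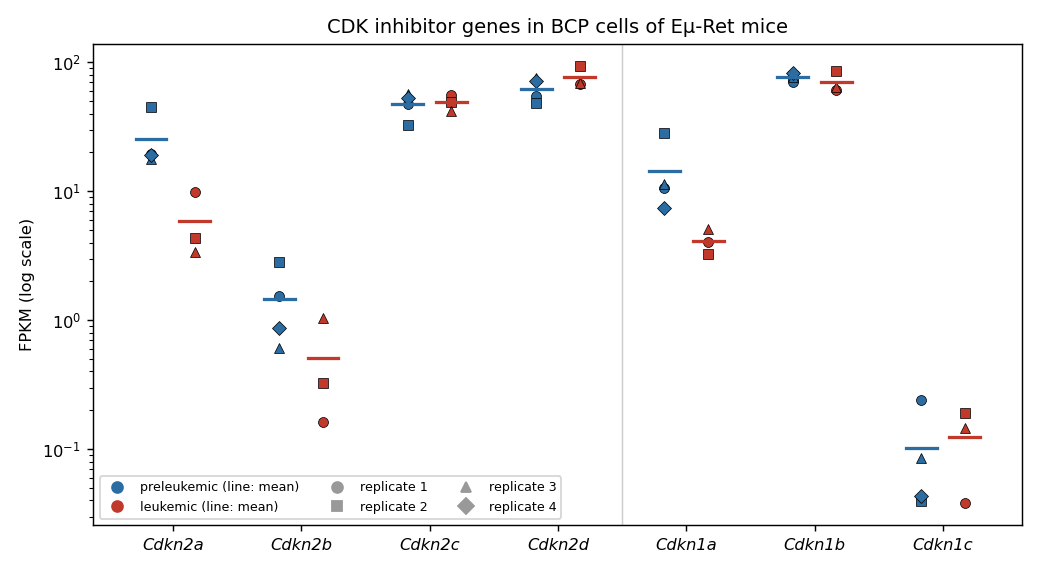
FPKM of the 7 CDK inhibitor genes on a log axis, INK4 genes to the left of the line and CIP/KIP genes to the right, with a symbol for each replicate and a horizontal line at the group mean. The leukemic points lie below all preleukemic points for Cdkn2a and Cdkn1a, and the groups overlap for the other 5 genes.

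Of the 7 members, 5 passed the filter on low values (an FPKM sum of at least 10 over the 7 samples) and were tested. Cdkn2a alone passed the test for a difference between the groups (limma, Benjamini-Hochberg adjusted p under 0.05), and it was lower in leukemia. That is 1 of 5 tested members, where 14.7% of all 10541 genes tested passed in either direction, 6.26% lower and 8.47% higher in leukemia. Leukemic samples lay below all preleukemic samples in 2 of the 5, Cdkn2a and Cdkn1a, and in 17.1% of all genes tested, and they lay above in 0 of the 5 and in 14.9% of all genes tested (32.0% without overlap in either direction). The median log2 fold change (leukemic minus preleukemic, on log2(FPKM + 1)) was -0.13 over the 5 members and -0.02 over all genes tested. Counts of 1 and 2 in 5 genes are too small to set the family apart from these shares. Each limma p-value sets a difference against the spread between the deposited samples, with the variance moderated toward a trend over all genes. Fold changes on this scale understate the change of genes with low values.

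Cdkn2a (chromosome 4, 89274473 to 89294619), the source of p16INK4a and p19ARF, had 19.5, 45.0, 17.7 and 19.2 FPKM in preleukemic replicates 1 to 4 and 9.78, 4.32 and 3.40 FPKM in leukemic replicates 1 to 3. Every leukemic value was below every preleukemic value, preleukemic replicate 2 stood far above the other 3, and leukemic replicate 1 was the highest of its group. These levels correspond to about 170 to 450 fragments in the preleukemic samples and 38 to 103 in the leukemic samples, so counting error was small beside the spread between samples. The mean was 25.35 ± 13.1 FPKM (SD, n = 4) in preleukemia and 5.83 ± 3.45 FPKM (SD, n = 3) in leukemia, 4.35-fold lower. The log2 fold change was -1.95 (SE 0.41, 95% interval -2.90 to -0.999, limma adjusted p = 0.0245), below that of 99.7% of the genes tested. The exact two-sided permutation test over the 35 ways to label the samples gave p = 0.0571, which is the smallest p this design allows. Leaving out preleukemic replicate 2, the highest sample, gave a log2 fold change of -1.65 and an adjusted p of 0.0503 (limma). The call was also lost without leukemic replicate 3 (0.0568), preleukemic replicate 3 (0.0574) and preleukemic replicate 4 (0.0701). The study itself, with DESeq2, lists Cdkn2a among the genes significantly lower in leukemia than in preleukemia. Its samples are the same, so the result here is not independent of that listing.

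Markers of other cell types moved with this comparison. The summed FPKM of 15 B-cell precursor markers ranged from 6732 to 8334 in preleukemia and from 3382 to 5102 in leukemia, a ratio of means of 1.81 against 4.35 for Cdkn2a. Each of the 15 B-cell precursor markers was above 1 FPKM in every sample, and 4 of them were called lower and 0 higher. All 15 had log2 fold changes below 0 (median -0.70), where 52.1% of all genes tested did (median -0.02). In 11 of the 15 the leukemic samples lay below all preleukemic samples, against 17.1% of all genes tested. Over all genes tested, 6.26% were called lower and 8.47% higher. The summed level of red cell precursor markers ranged from 420.6 to 2791 in preleukemia and from 5637 to 26190 in leukemia, and all 12 tested passed as higher. Macrophage markers (6 of 10 tested higher, sums 14.2 to 24.8 against 50.7 to 245.9), neutrophil markers (5 of 11 higher, 152.2 to 880.4 against 1448 to 1801) and platelet markers (4 of 4 higher, 1.72 to 3.38 against 14.2 to 55.2) followed the same direction. None of 7 T and NK cell markers and 1 of 5 plasma cell markers passed, the latter as higher. The most abundant marker of each list was Cd79a, Hbb-b1, C1qa, S100a8, Ppbp, Gzma and Mzb1, in the order B-cell precursor, red cell, macrophage, neutrophil, platelet, T and NK, and plasma cell. Of the markers of other cell types in the table, 1 (the hemoglobin gene Hbb-bs) was at the floor in every sample. In bulk RNA, fewer cells of a type and less RNA per cell cannot be told apart, and the part of these other cells in the Cdkn2a difference was not tested.

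Cdkn2b (chromosome 4, 89306289 to 89311032), which encodes p15INK4b, had 1.53, 2.82, 0.609 and 0.863 FPKM in preleukemic replicates 1 to 4 and 0.163, 0.324 and 1.03 FPKM in leukemic replicates 1 to 3. Leukemic replicate 3 lay within the preleukemic range and the other 2 leukemic samples lay below it. The values rest on about 27, 48, 10 and 14 fragments in preleukemia and 3, 6 and 20 fragments in leukemia, and their sum over the 7 samples (7.34 FPKM) did not reach the filter. In the fit without a filter the log2 fold change was -0.67 (95% interval -1.48 to 0.15, limma adjusted p = 0.246), and the exact permutation test gave p = 0.171 (two-sided). A difference was not detectable beside the spread within each group, and this scale understates fold changes at such low values. The ratio of Cdkn2a to Cdkn2b was 12.7 to 29.1 in the preleukemic samples and 59.8, 13.3 and 3.29 in leukemic replicates 1 to 3. The spread of this ratio was wider in leukemia. In leukemic replicates 1 and 2 the ratio rests on about 3 and 6 Cdkn2b fragments, so counting error could account for part of this spread.

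The chromosome around the 2 genes gave few other values. Of 23 other genes in the table within 500 kb of Cdkn2a, 20 were at the floor of the table (0.01 FPKM) in every sample, and only Mtap passed the filter. Mtap, which encodes methylthioadenosine phosphorylase and is often lost with CDKN2A in human tumors, lies 93.4 kb from Cdkn2a. It had 73.9, 68.9, 55.6 and 56.9 FPKM in preleukemic replicates 1 to 4 and 105, 51.9 and 42.8 FPKM in leukemic replicates 1 to 3. The groups overlapped, and the log2 fold change was -0.04 (limma adjusted p = 0.935). The nearest tested gene on the other side was Tusc1, 4040 kb away, with a log2 fold change of -0.12 (adjusted p = 0.843). Over 645 tested genes of chromosome 4 the median log2 fold change was -0.04, with 37 called higher and 47 lower.

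**Figure D2:**
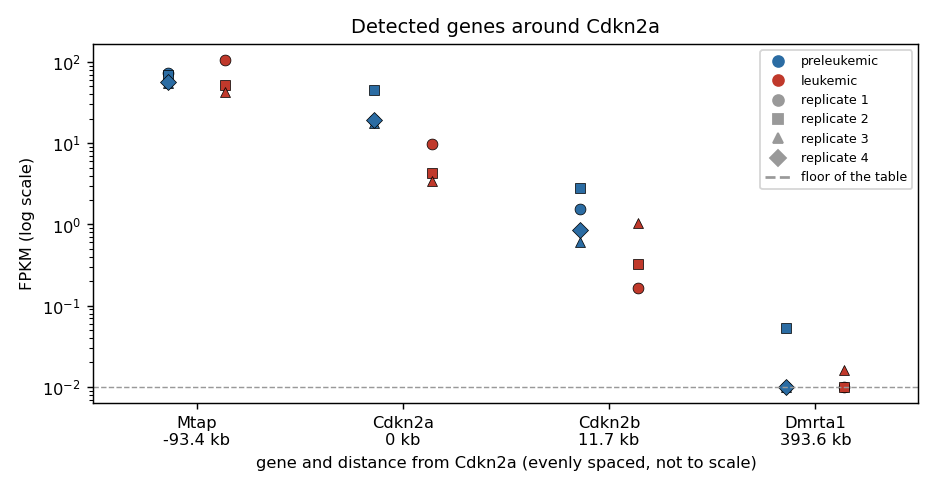
FPKM (log axis) of the 4 genes within 500 kb that were above the floor in at least 1 sample, with a symbol for each replicate, in order along chromosome 4 with the distance from Cdkn2a in kb. Mtap overlapped between the groups, Cdkn2a did not, and Cdkn2b overlapped through leukemic replicate 3 at 1.03 FPKM.

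Cdkn2c and Cdkn2d were the abundant INK4 genes, and neither differed beyond the spread between samples. Cdkn2c (p18INK4c, chromosome 4, 109660876 to 109666756) had 47.0, 32.7, 57.1 and 52.6 FPKM in preleukemic replicates 1 to 4 and 55.3, 49.0 and 42.0 FPKM in leukemic replicates 1 to 3. All 3 leukemic values lay inside the preleukemic range. The log2 fold change was 0.06 with a 95% interval from -0.40 to 0.52 (limma adjusted p = 0.843).

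Cdkn2d (p19INK4d, chromosome 9, 21288464 to 21291209) had 55.0, 48.3, 75.1 and 71.3 FPKM in preleukemic replicates 1 to 4 and 67.6, 93.7 and 68.8 FPKM in leukemic replicates 1 to 3. Only leukemic replicate 2 exceeded the highest preleukemic value. The log2 fold change was 0.30 (95% interval -0.14 to 0.74, limma adjusted p = 0.295). The median over 596 tested genes of chromosome 9 was 0.22, with 78 called higher and 7 lower, and the median over 29 tested genes within 500 kb was 0.25, with 8 called higher and 0 lower. Among them were Eif3g, Icam4, Fdx1l, Cdc37, Atg4d, Qtrt1 and Carm1, from 0.44 for Eif3g to 2.85 for Icam4, a red cell adhesion molecule. The value of Cdkn2d thus lay near that of its surroundings.

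Cdkn1a (p21, chromosome 17, 29090986 to 29100722) had 10.6, 28.1, 11.3 and 7.41 FPKM in preleukemic replicates 1 to 4 and 4.03, 3.27 and 5.12 FPKM in leukemic replicates 1 to 3. Every leukemic value was below every preleukemic value, and preleukemic replicate 2 was again the highest. The estimates were about 187 to 760 fragments in preleukemia and 94 to 155 in leukemia. The mean was 14.4 ± 9.29 FPKM (SD, n = 4) in preleukemia and 4.14 ± 0.932 FPKM (SD, n = 3) in leukemia, a ratio of 3.47. The log2 fold change was -1.43 (SE 0.39, 95% interval -2.35 to -0.51), and the limma adjusted p of 0.051 missed the threshold. The exact permutation test gave p = 0.0571 (two-sided), the smallest the design allows. Without preleukemic replicate 2 the log2 fold change was -1.07 and the adjusted p was 0.048 (limma). The gene overlaps an unnamed transcript on the other strand, and whether strand entered the authors' counting is not given in the sources used here.

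Most called genes of chromosome 17 were higher in leukemia, unlike the direction of Cdkn1a. Over 592 tested genes of this chromosome the median log2 fold change was 0.35, with 199 called higher and 3 lower. Within 500 kb of Cdkn1a, 13 genes were tested with a median of 0.35, and 6 of them (Srpk1, Brpf3, 4930539E08Rik, Kctd20, Ppil1 and Mtch1) were called higher and 0 lower. The nearest tested neighbors were Srsf3, a splicing factor gene (142.5 ± 11.0 FPKM in preleukemia and 161.8 ± 14.5 FPKM in leukemia, log2 fold change 0.18), and Ppil1 (56.1 ± 7.81 and 98.01 ± 14.2 FPKM, log2 fold change 0.80, limma adjusted p = 0.0171). The nearest gene in the table, Trp53cor1, a long noncoding RNA gene induced by p53, lies 11.9 kb away and was under the filter. It had 0.511, 2.23, 0.840 and 0.803 FPKM in preleukemic replicates 1 to 4 and 0.0894, 0.243 and 0.0635 FPKM in leukemic replicates 1 to 3. Its values lay in the same direction as those of Cdkn1a, without overlap and with the highest value in preleukemic replicate 2, and it was not tested. Cdkn1a had a log2 fold change lower than that of 98.9% of all genes tested within a region whose median was above 0.

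Cdkn1b (p27, chromosome 6, 134920401 to 134925525) had 69.8, 77.5, 76.9 and 82.3 FPKM in preleukemic replicates 1 to 4 and 60.9, 85.8 and 64.8 FPKM in leukemic replicates 1 to 3. The leukemic values lay on both sides of the preleukemic range. The log2 fold change was -0.13 with a 95% interval from -0.43 to 0.17 (SE 0.13, limma adjusted p = 0.488), the narrowest interval of the 5 tested members. Of 11 tested genes within 500 kb, Hebp1 was called higher and Lrp6, Crebl2 and Gm19434 lower.

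Cdkn1c (p57, chromosome 7, 143458339 to 143461050) was close to undetected. It had 0.239, 0.0394, 0.0850 and 0.0431 FPKM in preleukemic replicates 1 to 4 and 0.0382, 0.189 and 0.145 FPKM in leukemic replicates 1 to 3. These values correspond to about 6, 1, 2 and 1 fragments and about 1, 5 and 4 fragments, and the groups overlapped. No difference was detectable at this depth (log2 fold change 0.03 without a filter, limma adjusted p = 0.816).

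**Figure D3:**
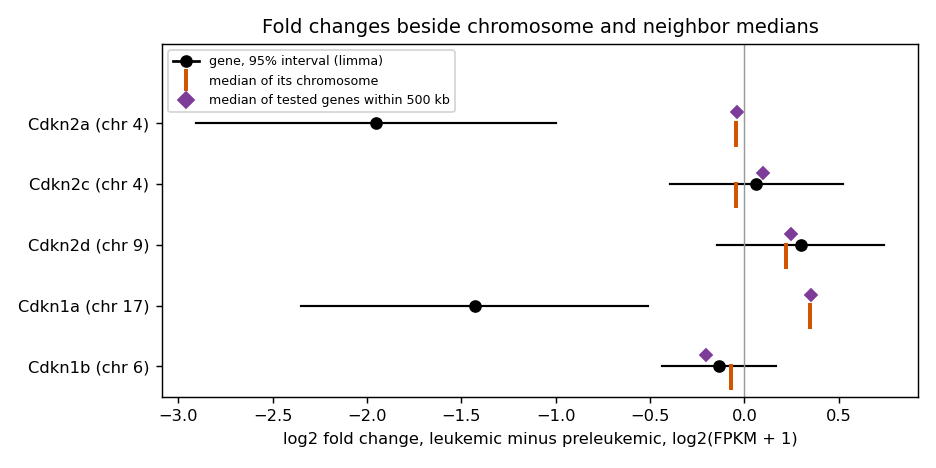
Log2 fold change (leukemic minus preleukemic, log2(FPKM + 1)) of the 5 tested members with the 95% interval from limma, beside the median over the tested genes of the same chromosome (bar) and the median over tested genes within 500 kb (diamond). The intervals of Cdkn2a and Cdkn1a lie below 0 and below both medians, and those of the other 3 members include 0.

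The summed level of each family overlapped between the groups, while the shares of Cdkn2a and Cdkn1a did not. The 4 INK4 genes summed to 137 ± 12.8 FPKM (SD, n = 4) in preleukemia and 132 ± 16.1 FPKM (SD, n = 3) in leukemia, and the 3 CIP/KIP genes summed to 91.1 ± 10.5 and 74.8 ± 12.8 FPKM. Cdkn2a made up 15.9%, 34.9%, 11.8% and 13.3% of the INK4 sum in preleukemic replicates 1 to 4 and 7.36%, 2.93% and 2.95% in leukemic replicates 1 to 3. Cdkn1a made up 13.2%, 26.6%, 12.8% and 8.26% of the CIP/KIP sum in the preleukemic samples and 6.21%, 3.66% and 7.32% in the leukemic samples. Both shares were lower in each leukemic sample than in any preleukemic sample.

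**Figure D4:**
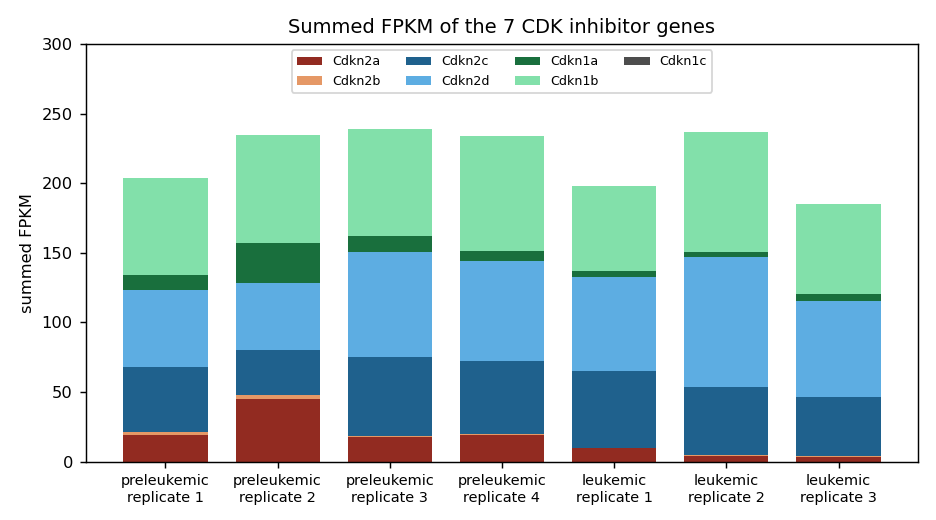
Summed FPKM of the 7 CDK inhibitor genes in each sample, stacked by gene, with INK4 genes in red and blue and CIP/KIP genes in green and gray. The total ranged from 203.8 to 238.9 FPKM in preleukemia and from 185.2 to 236.6 FPKM in leukemia, while the Cdkn2a and Cdkn1a segments were thinner in the leukemic samples.

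The preleukemic samples also differed among themselves. Preleukemic replicate 2 was the highest of its group for Cdkn2a (2.30 times the second highest), Cdkn1a (2.48 times) and Cdkn2b (1.84 times). It was the lowest for Cdkn2c and Cdkn2d. Cdkn1c rested on about 1 fragment in this sample, as in preleukemic replicate 4, so its order cannot be read. The ratio of Cdkn2a to Cdkn1a was between 1.57 and 2.59 in the 4 preleukemic samples, and in leukemic replicates 1 to 3 it was 2.42, 1.32 and 0.663. Because preleukemic replicate 2 was singled out for its Cdkn2a value, the following values are a description with no test. Among 15 tested p53 target genes other than Cdkn1a, 11 (73.3%) were highest in preleukemic replicate 2, against 27.05% of all genes tested. Zmat3, which encodes an RNA-binding protein, had 2.30, 9.22, 2.37 and 1.81 FPKM in preleukemic replicates 1 to 4. Bbc3 (Puma, a pro-apoptotic BCL2 family gene) had 4.20, 16.4, 4.93 and 4.38 FPKM, and Phlda3, an inhibitor of Akt signaling, had 10.8, 24.9, 11.2 and 5.57 FPKM. Trp53 itself varied little, with 129, 125, 120 and 116 FPKM.

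In preleukemic replicate 2 genes of DNA replication were low. All 18 tested E2F target and replication genes were lowest in preleukemic replicate 2 among the preleukemic samples, against 32.8% of all genes tested, and 17 of the 18 were highest in preleukemic replicate 1. Their summed FPKM was 1810, 1072, 1589 and 1384 in preleukemic replicates 1 to 4 and 2633, 1906 and 1649 in leukemic replicates 1 to 3. The median over the 18 genes of the log2 difference between preleukemic replicate 2 and the mean of the other 3 was -0.53, and over the p53 targets it was 0.44, where over all genes tested it was -0.02. The other preleukemic samples were not in opposite order in the 2 lists, and replicate 4 lay below the mean of the others in both (-0.08 and -0.33). In leukemia, replicate 1 had the highest replication sum and the highest Cdkn2a value, whereas Cdkn1a was highest in replicate 3, which had the lowest replication sum. In preleukemic replicate 2 the B-cell precursor marker sum was 7028, within the range of the group, the neutrophil sum was 581.8 (second highest), and the macrophage sum was 24.8 and the T and NK sum 18.8 (both the highest). The part of these cells in the pattern was not tested.

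**Figure D5:**
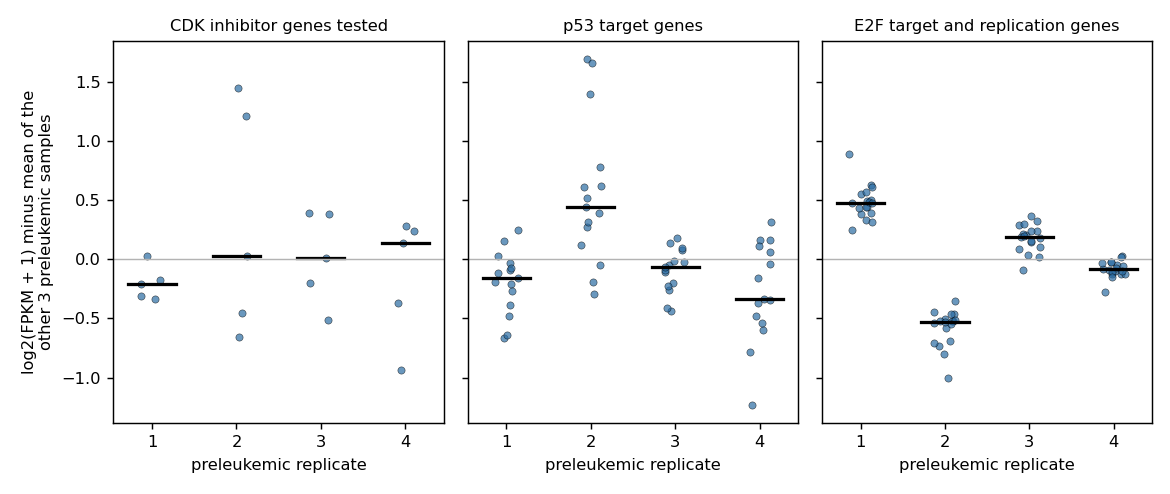
Difference of log2(FPKM + 1) in each preleukemic replicate from the mean of the other 3, 1 point per gene and a line at the median, for the 5 tested CDK inhibitor genes, 15 p53 targets and 18 E2F target and replication genes. In replicate 2 the replication genes all lie below 0 (median -0.53) and most p53 targets lie above it (median 0.44).

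The genes on which the inhibitors act were then compared between the groups. Counts in each list are set against the 14.7% of all genes tested that were called, 8.47% higher and 6.26% lower. Of 11 genes for cyclins and kinases bound by the inhibitors, 1 was called higher and 1 lower (18.2%), with a median log2 fold change of 0.56 (the median of all genes tested was -0.02). Ccnd1 (cyclin D1) had 15.9, 22.2, 20.03 and 4.59 FPKM in preleukemic replicates 1 to 4 and 118, 29.9 and 102 FPKM in leukemic replicates 1 to 3. The groups did not overlap, and the log2 fold change was 2.30 (SE 0.63, limma adjusted p = 0.0496). Ccnd3 (cyclin D3), the most abundant gene of this list, fell by 0.72 on the log2 scale (SE 0.10, adjusted p = 0.0109), with 329 to 402 FPKM in preleukemia and 206 to 240 FPKM in leukemia. Ccnd2 (cyclin D2) ranged from 7.94 to 22.1 FPKM in preleukemia and from 2.24 to 27.1 FPKM in leukemia, with overlapping groups, and did not pass (log2 fold change -0.93, adjusted p = 0.373). Of the D-cyclin genes, 1 thus rose, 1 fell and 1 did not pass, and neither Cdk4 nor Cdk6 passed the test, with log2 fold changes of 0.24 and -0.04.

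Among 13 retinoblastoma and E2F family genes, 3 rose and 1 fell (30.8% called), with a median of 0.11. E2f1, an activator of S-phase genes, had 12.3, 7.49, 10.2 and 8.65 FPKM in preleukemia and 19.9, 14.7 and 14.6 FPKM in leukemia (log2 fold change 0.71, limma adjusted p = 0.0411). E2f4, which mainly represses in quiescent cells, and the dimerization partner gene Tfdp1 rose by 0.50 (adjusted p = 0.0164) and 0.46 (adjusted p = 0.0226), and E2f5 fell by 0.60 (adjusted p = 0.0138). Rb1 had a log2 fold change of 0.03 and did not pass.

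Of 18 E2F target and replication genes, 3 were called higher and 0 lower. The 16.7% called is near the 14.7% of all genes tested. All 18 had log2 fold changes above 0, where 47.9% of all genes tested did, and their median was 0.47. The genes called were Cdt1 and Cdc6, which load the replicative helicase, and the proliferation marker Mki67, with log2 fold changes of 0.95, 0.85 and 0.74 (limma adjusted p = 0.0412, 0.0374 and 0.0316). Cdt1 had 17.9 to 32.2 FPKM in the preleukemic samples and 35.2 to 62.6 FPKM in the leukemic samples. Pcna, the sliding clamp and the most abundant of the list, had a log2 fold change of 0.32 (adjusted p = 0.271) and overlapping groups.

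Of 15 genes for the turnover of inhibitor proteins, 4 were called higher and 0 lower (26.7%), with a median of 0.11. Rnf123 and Ubac1 encode both subunits of the KPC ubiquitin ligase that acts on p27. Rnf123 had 16.8 to 18.6 FPKM in preleukemia and 26.2, 42.7 and 41.4 FPKM in leukemia (log2 fold change 0.96, limma adjusted p = 0.0167). Ubac1 had 21.1, 12.9, 12.7 and 11.98 FPKM in preleukemia and 26.3, 56.0 and 38.4 FPKM in leukemia (log2 fold change 1.37, adjusted p = 0.0235). In both genes the leukemic samples were above all preleukemic samples, and leukemic replicate 1, with the lowest red cell marker sum of its group (5637), had the smallest leukemic value. The part of red cell precursors in these values was not tested. Cks1b, a cofactor of the p27 ligase SCF-Skp2, rose by 0.70 (adjusted p = 0.0467), whereas Skp2 had a log2 fold change of -0.05 and Skp1a, the most abundant of the list, 0.16 (adjusted p = 0.446). Cul4a, a scaffold of another ubiquitin ligase, was the fourth gene called, at 0.52.

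Genes that control transcription of the inhibitors were compared next. Of 18 tested genes for Polycomb and other regulators of the Ink4/Arf locus, mostly repressors, 0 were called higher and 2 lower, with a median of -0.22. Kdm6b, counted among them, is not a repressor (log2 fold change -0.71, not called). The 11.1% called is below the 14.7% of all genes tested. Rnf2, the catalytic subunit gene of Polycomb repressive complex 1, fell from 35.4 ± 1.69 to 26.8 ± 3.38 FPKM (log2 fold change -0.39, limma adjusted p = 0.0412). Bmi1 and Ezh2, the Polycomb genes best known for silencing Cdkn2a, had log2 fold changes of -0.20 and -0.14 and did not pass. Ezh2 was the most abundant of the list, with 101 to 111 FPKM in preleukemia and 80.5 to 103 FPKM in leukemia.

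Of 17 tested transcriptional activators of the inhibitor genes, 2 were called higher and 4 lower (35.3%), with a median of -0.04. Foxo1, an activator of Cdkn1a and Cdkn1b among many genes, had 144, 156, 179 and 177 FPKM in preleukemia and 57.2, 104 and 98.6 FPKM in leukemia (log2 fold change -0.95, limma adjusted p = 0.0277). Egr1, an immediate early gene, had 29.9, 32.9, 28.1 and 19.5 FPKM in preleukemia and 7.32, 12.3 and 15.7 FPKM in leukemia (log2 fold change -1.20, adjusted p = 0.0278). Smad2 and Zbtb17 (Miz1) also fell, by 0.47 and 0.34, and Foxo4 rose by 0.40. Cebpb, also a myeloid factor, had 0.223 to 1.23 FPKM in preleukemia and 5.43 to 11.3 FPKM in leukemia (log2 fold change 2.42, adjusted p = 0.0096), and neutrophil and macrophage marker sums were higher in the same samples. Ets1, the most abundant of the list, lay lower in every leukemic sample but did not pass (log2 fold change -0.37, adjusted p = 0.105).

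Of 11 genes that link Arf to p53, 2 were called higher and 1 lower (27.3%), with a median of 0.09. Mdm2, the p53 ligase restrained by p19ARF and itself a p53 target, had 32.8, 39.7, 34.4 and 36.6 FPKM in preleukemia and 24.6, 28.5 and 28.3 FPKM in leukemia (log2 fold change -0.39, limma adjusted p = 0.0376). Npm1, which holds p19ARF in the nucleolus, rose by 0.40 (adjusted p = 0.0493) and the checkpoint kinase gene Chek2 by 0.93 (adjusted p = 0.0152). Trp53 had a log2 fold change of 0.10 (adjusted p = 0.464). Of 15 tested p53 targets other than Cdkn1a, 0 were called higher and 1 lower, with a median of -0.26. Mdm2, called lower, was counted with the genes that link Arf to p53 and not among these 15. The 6.67% called is below the 14.7% of all genes tested, and 10 of 15 (66.7%) had log2 fold changes below 0, where 52.1% of all genes tested did. The gene called was Trp53inp1 (log2 fold change -0.67, adjusted p = 0.0468), and Bax, the most abundant, had -0.26 (adjusted p = 0.260).

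Of 13 tested genes for other CDK regulators, 2 were called higher and 0 lower (15.4%), with a median of -0.02. Pkmyt1, an inhibitory kinase of CDK1, had 14.6, 9.06, 14.9 and 8.94 FPKM in preleukemia and 36.5, 24.2 and 25.6 FPKM in leukemia (log2 fold change 1.22, limma adjusted p = 0.0191). The CDK-activating phosphatase gene Cdc25a rose by 0.46 (adjusted p = 0.0304). Cdc25b, the most abundant, ranged from 48.6 to 164 FPKM in leukemia and did not pass (log2 fold change -0.47, adjusted p = 0.404).

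Genes with patterns most like those of the tested members were found by Pearson's r of log2(FPKM + 1) over the 7 samples among 8776 genes with a mean of at least 5 FPKM. For Cdkn2a they were Foxj3 (r = 0.99), Pomgnt1 (0.99) and Rnf169 (0.97), of which Foxj3 and Pomgnt1 lie on chromosome 4 as well. For Cdkn1a they were Rrn3, Sp1 and Med1 (0.98 each), for Cdkn2c Fam149b, Ltk and Spsb4 (0.99, 0.97 and 0.96), for Cdkn2d Nipa2, 2310011J03Rik and Bud31 (0.98, 0.97 and 0.97), and for Cdkn1b Gpd1l, H2-Q8 and Serpina3f (0.99 each). With 7 points in 2 groups, taken from the same libraries, such values are a description of likeness. Among the members, the pairs with the largest absolute r were Cdkn2a and Cdkn1a (0.88), Cdkn2b and Cdkn1a (0.86), Cdkn2b and Cdkn2c (-0.84) and Cdkn2b and Cdkn2d (-0.83). Cdkn2b was under the filter and rested on few fragments.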

How the data were processed

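RNA was sequenced from splenic BCP cells, sorted according to the labels, with a stranded mRNA kit. The authors deposited 1 FPKM value per gene and sample (24341 genes, none below 0.01 FPKM), normalized by them to transcript length and depth. The submitters' processing notes list STAR 2.5.0b, bedtools 2.17.0, Cufflinks 2.2.1, Bowtie, DESeq2 and the mm10 build, without saying which step made the table, and fragments shared by isoforms or overlapping genes could therefore be split in ways not known here. The study's methods describe DESeq2 on counts, and the values used here are not counts, so no count model was run. The table holds no counts, but values of 2243 genes with 1 transcript longer than 1500 bases stepped in whole fragments (77.3% to 83.5% of low values within 0.1 of a whole number for a 200-base fragment, 20% if uniform), which gave the depth. Fragment numbers cover counting error only.

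A gene entered the fit where its FPKM over the 7 samples summed to 10 or more (10541 genes). The log2(FPKM + 1) values were compared in R 4.3.3 by limma 3.58.1 (lmFit, then eBayes with an intensity trend), 3 leukemic against 4 preleukemic samples, without covariates, and adjusted by Benjamini and Hochberg over all genes tested. A gene was called at an adjusted p under 0.05. Single members were also tested by exact two-sided permutation. Labels were taken from the sample titles. The fit was tested on simulated data. Alternatives were pseudocounts of 0.1 and 0.5, no filter, a filter of 70 FPKM, quantile normalization, median-of-ratios scaling, no intensity trend, array weights, a test against a 1.5-fold change, the replicate number as a block and leaving out each sample. Samples that share a replicate number had correlations of their deviations of 0.029, 0.05 and -0.092. These values gave no sign of pairing, but with so few samples they cannot exclude a shared origin or batch.

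The members and the gene lists were chosen with earlier results of these data known. Named are all members, in each pathway list the called genes with the 3 largest changes and the most abundant gene, the most abundant gene of each marker list, called genes and nearest tested genes within 500 kb of a member, and the 3 genes most like each tested member. Ccnd2, Trp53cor1, Cdk4, Cdk6, Rb1, Skp2, Cul4a, Bmi1, Smad2, Zbtb17, Foxo4, Trp53, Zmat3, Bbc3 and Phlda3 were named after their values were seen. A few genes that this rule names are not reported here. Positions are those of the table on GRCm38 with 1 added to its starts. Upstream sequences came from RefSeq on GRCm38.p6, with 9 starts for 6 of the 7 members. Lists, ranges and permutations used scipy 1.17.1, pandas 2.3.3 and numpy 2.4.6 under Python 3.11.15, and plots used matplotlib 3.10.9.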

Additional observations from a re-analysis of the deposited data

Results flagged for a closer look

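In groups of 4 samples, the highest or lowest sample can stand apart from the rest by chance in about 1 of 20 groups (Dixon's test), and 43 genes named or listed here were examined in the preleukemic group, of which 6 had such a sample. Cdkn2a had 45.0 FPKM in preleukemic replicate 2, where the other 3 preleukemic samples had 17.7 to 19.5 FPKM. Genes named after their values were seen, Zmat3 and Bbc3 among them, were not among the 43. Zmat3 and Bbc3 were also high in preleukemic replicate 2, at 9.22 FPKM (1.81 to 2.37 in the others) and 16.4 FPKM (4.20 to 4.93). The other 5 of the 6 were high in preleukemic replicate 1. They were E2f5 at 14.5 FPKM (12.5 to 12.8 in the others), E2f4 at 67.5 FPKM (58.3 to 59.8), Ubac1 at 21.1 FPKM (11.98 to 12.9), the hemoglobin gene Hbb-b1 at 1580 FPKM (129 to 168.5) and the platelet gene Ppbp at 1.23 FPKM (0.01 to 0.166). The same library had the highest red cell precursor marker sum of its group, 2791 against 420.6 to 443.8. Leaving it out gave a Cdkn2a log2 fold change of -2.04 (limma adjusted p = 0.0475).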

How the results depend on the processing

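Cdkn2a was lower in leukemia under all 17 alternatives (log2 fold change -2.34 to -1.65, limma adjusted p 0.0137 to 0.209) and stayed called in 11. The call was lost against a 1.5-fold change (-1.95, adjusted p = 0.209), with the replicate number as a block (-2.04, adjusted p = 0.145), a block under which 0 of 10541 genes were called, and without leukemic replicate 3 or preleukemic replicate 2, 3 or 4. Leaving out single samples gave -2.34 to -1.65. Cdkn1a was lower under all 16 alternatives that gave a value (-1.66 to -1.07) and was called in 4, with pseudocounts of 0.1 and 0.5, with quantile normalization and without preleukemic replicate 2. Its FPKM sum, 69.9, was under the filter of 70. The number of members called was thus 2 with either pseudocount and with quantile normalization, 0 against a 1.5-fold change and with the replicate block, and 0 to 1 when single samples were left out. Cdkn2c turned to -0.11 with array weights, -0.03 without leukemic replicate 1 and -0.10 without preleukemic replicate 2, and was never called (-0.10 to 0.16 when single samples were left out). Cdkn2d and Cdkn1b kept their direction without a call under all 17. The genes of the 9 pathway lists gave 27 calls, 10 lower and 17 higher, against 16 with array weights, 0 against a 1.5-fold change and with the replicate block, and 2 to 23 when single samples were left out (21, 8, 3 and 2 without preleukemic replicate 1, 2, 3 or 4). Over all genes the 1553 calls became 932, 443, 271 and 149 without these samples, and the cause was not tested. Quantile normalization moved the split over all genes from 660 lower and 893 higher to 907 lower and 754 higher. At 13400000 to 16100000 fragments, Cdkn1c rested on too few fragments for a difference to be read. Cdkn2b rested on about 3 to 48 fragments and varied widely within each group, and no difference could be read.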
